A study of Mus musculus with 18 samples.

Results

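The comparison set macrophages exposed to interleukin-4 (IL-4) for 18 h against macrophages exposed for 4 h, in cells heterozygous for a deleted Irf4 allele. It compares 6 of the 18 arrays of the series, 3 labelled Irf4+/- IL4 4h and 3 labelled Irf4+/- IL4 18h. They were chosen by their titles and paired by the letters A, B and C. All 18 arrays, the Irf4-/- mock arrays among them, entered the fit that gave the standard errors and p-values. The 3 Irf4+/- mock arrays served to sort the genes by their course, and the 6 Irf4-/- arrays of the same times gave the same difference from other samples. The cells were bone marrow-derived macrophages of C57BL6/J mice aged 8 to 12 weeks, grown from marrow with the growth factor CSF-1. On day 7 the medium was given IL-4 (10 ng/ml), and RNA was taken 4 h or 18 h later. Mock cells went 18 h without IL-4. Marrow of 2 males and 1 female was pooled for a sample. The design text describes 3 independent experiments, each on littermates. All cells of the comparison carry 1 deleted Irf4 allele, so wild-type macrophages were not analysed here. Mock was taken at 18 h only, so the 4 h level is read against cells left without IL-4 for 18 h. Only the 4 h arrays had a short incubation. Where they differ from both 18 h groups, an effect of IL-4 and one of incubation time cannot be told apart.

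IL-4 binds a receptor made of IL-4Rα with the common γ chain or with IL-13Rα1, and JAK kinases at that receptor phosphorylate the transcription factor STAT6. STAT6 turns on the genes of alternative macrophage activation, among them secreted enzymes, lectins and chemokines, and also the SOCS proteins that switch the signal off again. Later genes of the response depend on transcription factors made in the first hours, and macrophages kept in IL-4 can fuse into giant cells, take up lipid and remodel matrix.

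RNA was measured on single-colour Agilent arrays. Levels are log2 of the processed signal minus the array's 75th percentile, so 0 is the level of a bright probe of that array and most probes lie below it. Per array, 63.4% to 74.4% of 43379 spots were well above background, and no more than 3 spots were saturated. With 3 arrays in each group, their number sets the precision. All 10 macrophage markers examined, among them Csf1r and Adgre1, were measured. Of these, 3 fell between the times (Fcgr1, Cd14 and Aif1) and 0 rose. Of all genes tested 6.33% fell and 5.12% rose, the shares to set beside each marker count here. The summed level of the 10 macrophage markers lay between 9.58 and 9.99 (log2) on the 4 h arrays and between 9.40 and 9.75 on the 18 h arrays. Sums of the markers of mast cells, erythroid cells, T and NK cells, dendritic cells of the conventional type, eosinophils and fibroblasts lay between -4.17 and -0.23 on these 6 arrays. Of 7 T and NK cell markers measured, 1 was higher at 18 h (Cd2, 1.71) and 1 lower (Lck). Of 3 eosinophil markers measured, 1 was higher (Ccr3). Neutrophil markers summed to 3.71 to 4.76, with none of 6 called in limma. The signal of the Irf4 probe itself overlapped between Irf4-/- cells (2.11, 1.5 and 1.57 at 4 h, letters A, B and C) and Irf4+/- cells (2.26, 1.69 and 1.07). The array holds 1 Irf4 probe. The sources used here do not say whether it lies in the deleted part, so it is no check of the genotype labels. In RNA of a whole culture, fewer cells of a type and less RNA per cell cannot be told apart.

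From the 4 h to the 18 h arrays, 790 of 15424 genes rose (5.12%) and 977 fell (6.33%), at an adjusted p under 0.05 in limma with the letter as a block. Of these, 241 rose and 307 fell by at least 2-fold, and the median change over all genes was 0.02 (log2). Against mock, 1548 genes (10.0%) were higher and 1265 (8.20%) lower at 4 h, and 1197 (7.76%) were higher and 1195 (7.75%) lower at 18 h. Both of those comparisons share the mock arrays, and the 4 h and 18 h arrays each enter 2 of the 3 comparisons that sort the genes. Just inside the threshold lay Odc1 (-0.62, adjusted p = 0.0478 in limma), and just outside it lay Ciita (0.75, adjusted p = 0.0545), which 10 of 27 other settings called.

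The size of these counts depended on how the letters were treated. Without the replicate block 177 genes passed (82 higher, 95 lower), all of them among the 1767. A fit of the 6 compared arrays alone called 977 higher and 1104 lower, and 1431 of the 1767 were called there in the same direction. Blocking on each genotype and letter together gave 3502 calls as a fixed and 3564 as a random block. No label says that the arrays of a genotype and letter came from 1 cell pool. A fit of the Irf4+/- arrays alone gave 2997 calls, and the slide as a random block beside the letter 2900. The samples of a letter deviated together, with correlations of 0.88, 0.80 and 0.81 between the 4 h and 18 h arrays of letters A, B and C, so the paired values are given throughout. The 18 h array of letter C lay on another slide than its 4 h array. With the slide as a block in place of the letter 922 genes rose and 1047 fell, and within letters A and B, where 1 slide held both times, 149 rose and 193 fell. Leaving out a single 4 h or 18 h array left 944 to 1216 calls, the fewest without the 4 h array of letter A and 989 without that of letter C. Counts of list members in other runs are to be read beside the totals of those runs. Scaling to the array's median gave 422 higher and 930 lower, a share of 31.2% higher against 44.7%. The normexp background correction gave 144 and 505 (22.2% higher) and moved the median over all genes to 0.13. With the spots far below their background left out, at most 6 on an array, normexp gave 601 and 874 (40.8% higher) and a median of 0.0016. Of all genes, 93.5% then kept the sign of the reported fit, against 67.3% with all spots. Of the 144 called genes under the naming rule, normexp moved 70 by over 1.5 times (50 smaller, 7 larger, 13 of opposite sign). With those spots left out it moved 30, all smaller, and 0 turned sign. The normexp value is given beside the genes described most fully. It keeps all spots there and for gene lists, except where stated, and so depends on the few spots far below their background. No turn of sign beside a called named gene was seen with them left out.

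Each gene was assigned a time class from its 3 comparisons. A transient gene was induced at 4 h and lower again at 18 h, a sustained gene was induced at both times with an 18 h minus 4 h interval within 1 log2 unit of 0, a progressive gene was induced at 4 h and higher still at 18 h, and a delayed gene was induced at 18 h only and rose between the times. Among induced genes, 468 were transient (3.03% of the genes tested), 385 sustained (2.50%), 54 progressive (0.350%) and 239 delayed (1.55%). The mirror-image classes of reduced genes held 309 transient (2.00%), 415 sustained (2.69%), 77 progressive (0.499%) and 303 delayed genes (1.96%). A further 188 genes rose and 129 fell between the times without a call against mock at either time. For 90 induced and 65 reduced genes the interval of the change was too wide to tell a sustained course from another. A transient course, induced or reduced, sets the 4 h arrays apart from mock and from 18 h of IL-4. Incubation time and IL-4 cannot be told apart there. In the median transient induced gene the 4 h rise was 0.80 and the 18 h level stood 0.14 above mock. Of the 468 transient induced genes, 93 were still called above mock at 18 h and 7 were called below it. The median progressive induced gene stood 1.23 above mock at 4 h and 2.79 above it at 18 h.

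**Figure D1:**
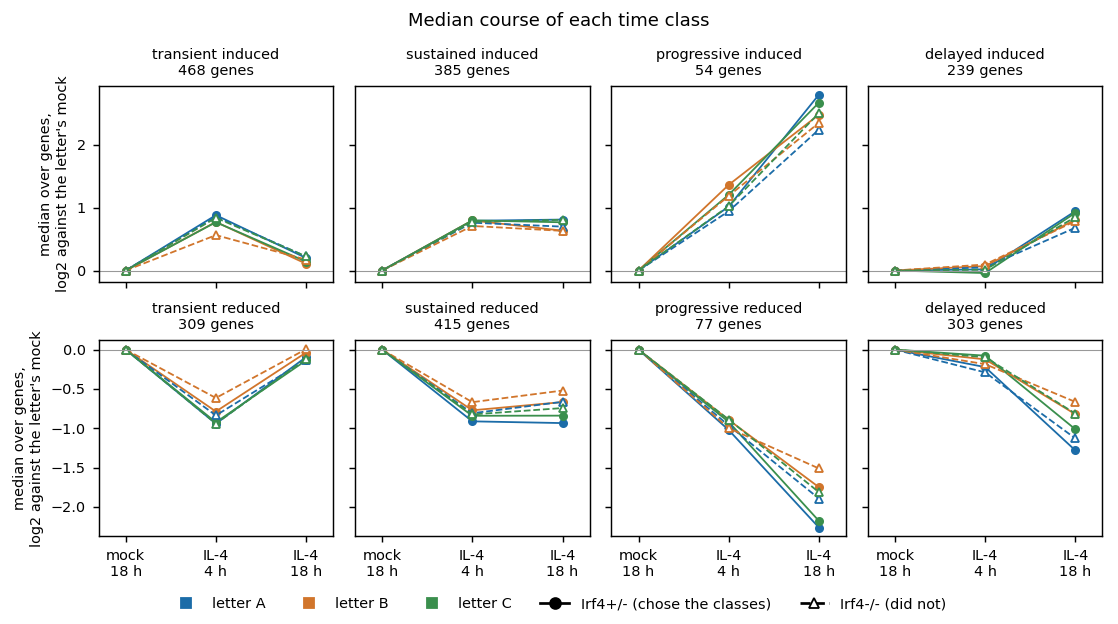
Median course of each time class. The horizontal axis gives the condition (mock 18 h, IL-4 4 h, IL-4 18 h), the vertical axis the median over the genes of a class of the log2 difference from the mock array of the same letter and genotype, and each line is 1 letter. Filled circles are Irf4+/- arrays, whose changes made the classes, and open triangles are Irf4-/- arrays. The 54 progressive induced genes reach medians of 2.48 to 2.80 at 18 h in Irf4+/- cells, while the 468 transient induced genes fall back to between 0.11 and 0.20.

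The genes induced first and raised further included the best known products of alternatively activated macrophages. Retnla encodes the secreted protein RELMα. Its level was -8.16, -8.17 and -8.85 on the mock arrays of letters A, B and C, 4.17, 3.04 and 2.24 at 4 h and 8.02, 6.52 and 6.89 at 18 h. No mock array had it well above background and every IL-4 array did, and each 18 h array lay above each 4 h array. It was at least 982-fold above mock at 4 h and then rose by another 3.99 ± 0.38 (log2, SE of the fit, 15.9-fold, adjusted p = 6.12e-05 in limma). Mgl2, a galactose-binding lectin of macrophages and dendritic cells, went from -1.68, -1.81 and -0.89 in mock to 2.48, 2.55 and 3.47 at 4 h and 5.6, 4.83 and 5.54 at 18 h. The groups were fully separate, and the later rise was 2.49 ± 0.23 (adjusted p = 5.07e-05). Arg1, the enzyme that splits arginine into ornithine and urea, stood at 1.54, 0.84 and 2.80 at 4 h and 4.85, 2.22 and 4.85 at 18 h. Its 18 h value in letter B was below the 4 h value in letter C, so the groups overlapped, although it rose within every letter, by 2.25 ± 0.65 (adjusted p = 0.0401). The Arg1 call was kept in 13 of 26 other settings and was lost without the mock array of C, any single 4 h array, or the 18 h array of A or C.

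Fn1, the matrix protein fibronectin, made most of its rise after 4 h. It measured -4.05, -6.44 and -5.92 in mock, -3.60, -4.69 and -3.66 at 4 h and 1.13, -1.02 and 0.0042 at 18 h, a later rise of 4.02 ± 0.35 (adjusted p = 2.92e-05) on a gene that was well above background on 2 of 3 mock arrays (2.50 under normexp). Itgax, the integrin CD11c, rose from 2.73, 3.25 and 3.06 to 5.51, 5.21 and 5.20, by 2.29 ± 0.18 (4.9-fold, adjusted p = 1.27e-05) on its brightest probe and by 1.27 on its other probe. Atp6v0d2, a proton pump subunit of osteoclasts and fused macrophages, rose from -0.54, 0.32 and -0.20 to 1.69, 2.25 and 2.02. The transcription factor gene Bhlhe40 had 0.93, 0.48 and 0.97 at 4 h and 2.81, 2.07 and 2.74 at 18 h, a rise of 1.75 ± 0.14 (adjusted p = 1.33e-05). For these 4 genes no 18 h array overlapped a 4 h array. Rbp4, which carries retinol in blood, rose by 4.21 ± 0.54 and the tubulin gene Tuba8 by 2.66 ± 0.50, with 2.38 and 1.59 under normexp. Itgb3, an integrin of osteoclasts, rose by 1.15 ± 0.29 on its brightest probe (adjusted p = 0.0229) and read -0.02 on the other. Its call was lost without the 4 h or 18 h array of A or C. Of the eosinophil-type ribonucleases, Ear10 (4.46 ± 0.61), Rnase2a (4.22 ± 0.76) and Ear1 (4.12 ± 0.53) were progressive and Ear3 (4.34 ± 0.62) and Ear6 (4.25 ± 0.65) delayed. These 5 genes are close paralogs, and probes that share their signal cannot be told from probes of 1 gene. At 4 h, Ear3 was well above background on 1 of 3 arrays and Ear6 and Ear10 on 2 of 3. Normexp gave Ear10 2.44, Ear1 2.58, Ear3 2.19 and Ear6 2.23.

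Promoter windows (250 bases before to 50 after each start, RefSeq, build GRCm38.p6) were searched for the STAT6-type site, TTC and GAA separated by 4 bases of any kind, which reads the same on both strands. It stood in 10.3% of 370 transient, 8.75% of 297 sustained, 7.5% of 40 progressive and 5.82% of 189 delayed induced genes with a window, beside 6.73% of the 11691 tested genes that have one and 8.01% of all 27025 genes with a window. In the reduced classes it stood in 5.91% of transient, 5.94% of sustained, 1.59% of progressive and 10.2% of delayed genes. A match is a run of letters and not a bound site. Excerpts with the site in capitals are shown for 1 transient, 1 sustained and 2 progressive genes, to place such a site beside genes of each course. The 4 were picked after their values were seen, and each is read 5′ to 3′ along the gene's strand.
Drd4 (chr7:141291835-141291924, plus strand): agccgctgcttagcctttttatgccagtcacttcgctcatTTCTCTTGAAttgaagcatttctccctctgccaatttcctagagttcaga
Hebp2 (chr10:18546111-18546200, minus strand): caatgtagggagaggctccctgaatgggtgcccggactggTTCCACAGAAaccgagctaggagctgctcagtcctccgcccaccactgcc
Retnla (chr16:48842424-48842513, plus strand): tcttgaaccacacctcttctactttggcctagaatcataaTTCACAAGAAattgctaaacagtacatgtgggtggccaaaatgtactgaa
Itgax (chr7:128129383-128129472, plus strand): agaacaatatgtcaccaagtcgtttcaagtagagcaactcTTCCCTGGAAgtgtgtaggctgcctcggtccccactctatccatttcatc

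Delayed genes were not called against mock at 4 h. Fabp4, a carrier of fatty acids, measured 0.66, 1.53 and 2.05 in mock, 0.02, 0.75 and 1.01 at 4 h and 3.61, 3.05 and 2.81 at 18 h. All 18 h arrays lay above all others, and the rise between the times was 2.56 ± 0.37 (5.91-fold, adjusted p = 0.000884). Chil3, the chitinase-like protein Ym1, was 1.90, 1.09 and 1.33 in mock, 3.69, 1.82 and 2.19 at 4 h and 6.38, 3.08 and 4.94 at 18 h. Here 4 h and 18 h overlapped across letters, with the 18 h array of letter B below the 4 h array of letter A, and the rise was 2.23 ± 0.45 (adjusted p = 0.00696). Its 4 h change of 1.13 ± 0.45 missed the threshold (adjusted p = 0.108), which is why the rule placed it here. Ocstamp and Dcstamp encode membrane proteins needed for fusion of osteoclasts and macrophages. Ocstamp went from -0.95, -1.93 and -2.14 to 3.10, -0.37 and 1.06, a rise of 2.93 ± 0.50 on its brightest probe. Its other probe was already 2.01 above mock at 4 h and rose by another 4.46, so its delayed class rests on the brightest probe. Dcstamp rose by 1.76 ± 0.29. Letter B had the lowest Ocstamp level at 18 h, still above every 4 h array. Of 10 osteoclast markers, these 2 among them, 5 rose and 0 fell, beside 5.12% and 6.33% of all genes, and their summed level went from 3.04 to 3.15 at 4 h to 4.00 to 4.68 at 18 h. Of the 24 genes of a longer fusion and osteoclast list, which these marker genes overlap, 6 rose and 2 fell, beside 5.12% and 6.33% of all genes. The 2 that fell were Itgav (-0.65) and Cd47 (-0.55). The median of the 24 was 0.22 and turned to -0.01 under normexp, and 1 rose without the block. The lysosomal protease Ctsk rose by 1.45 ± 0.28 and the metalloprotease Mmp19 by 1.87 ± 0.17 (adjusted p = 4.79e-05), with 18 h values of -1.01, -1.0 and -1.0. Wwc1, a scaffold of the Hippo pathway, rose by 2.68 ± 0.35, and the glycosyltransferase genes Galnt9 and Galnt15 by 2.68 ± 0.28 and 2.68 ± 0.49. F3, tissue factor of blood clotting, rose by 2.83 ± 0.63 and Bex1 by 3.67 ± 0.53. Galnt15 and Bex1 were well above background on 1 of 3 arrays at 4 h and F3 on 2 of 3. Under normexp Galnt15 read 1.51, F3 1.72 and Bex1 1.76. Pparg, the fatty acid-sensing nuclear receptor, rose by 1.06 ± 0.25 (adjusted p = 0.0149), from 2.92, 2.92 and 2.78 to 4.01, 3.86 and 3.94, and read 0.69 under normexp. The Pparg call was lost without the 4 h array of C or the 18 h array of A, and that of F3 without the 4 h array of A or the 18 h array of B or C.

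Several genes of antigen presentation on MHC class II rose late. Of 16 measured, 6 rose and 1 fell between the times, beside 5.12% and 6.33% of all genes, and the median of the 16 was 0.56. Cd74, the invariant chain, measured 5.86, 5.76 and 4.48 in mock, 5.95, 5.88 and 4.60 at 4 h and 6.95, 6.92 and 6.01 at 18 h. Its level in letter C was the lowest under every condition, and within each letter it rose late, by 1.14 ± 0.17 in all (adjusted p = 0.00123). H2-Ab1 (0.77 ± 0.15), H2-Aa (0.70 ± 0.17) and H2-DMa (0.82 ± 0.16) rose too. Normexp gave Cd74 0.70, H2-Ab1 0.38, H2-Aa 0.31 and H2-DMa 0.46. H2-Oa, which damps peptide loading, fell by 0.89 but read 0.33 under normexp. Ciita, the master regulator of this gene set, was at 1.06, 1.0 and -0.81 and then 1.95, 1.61 and -0.06, a change of 0.75 ± 0.23 that missed the threshold here and passed it in 10 of 27 other settings. Without the 4 h array of letter A or of C 3 of the 16 rose, and 0 passed without the replicate block, with normexp, or within letters A and B. In the same order of runs, 445, 433, 82, 144 and 149 of all genes were called higher, against 790 in the reported fit.

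**Figure D2:**
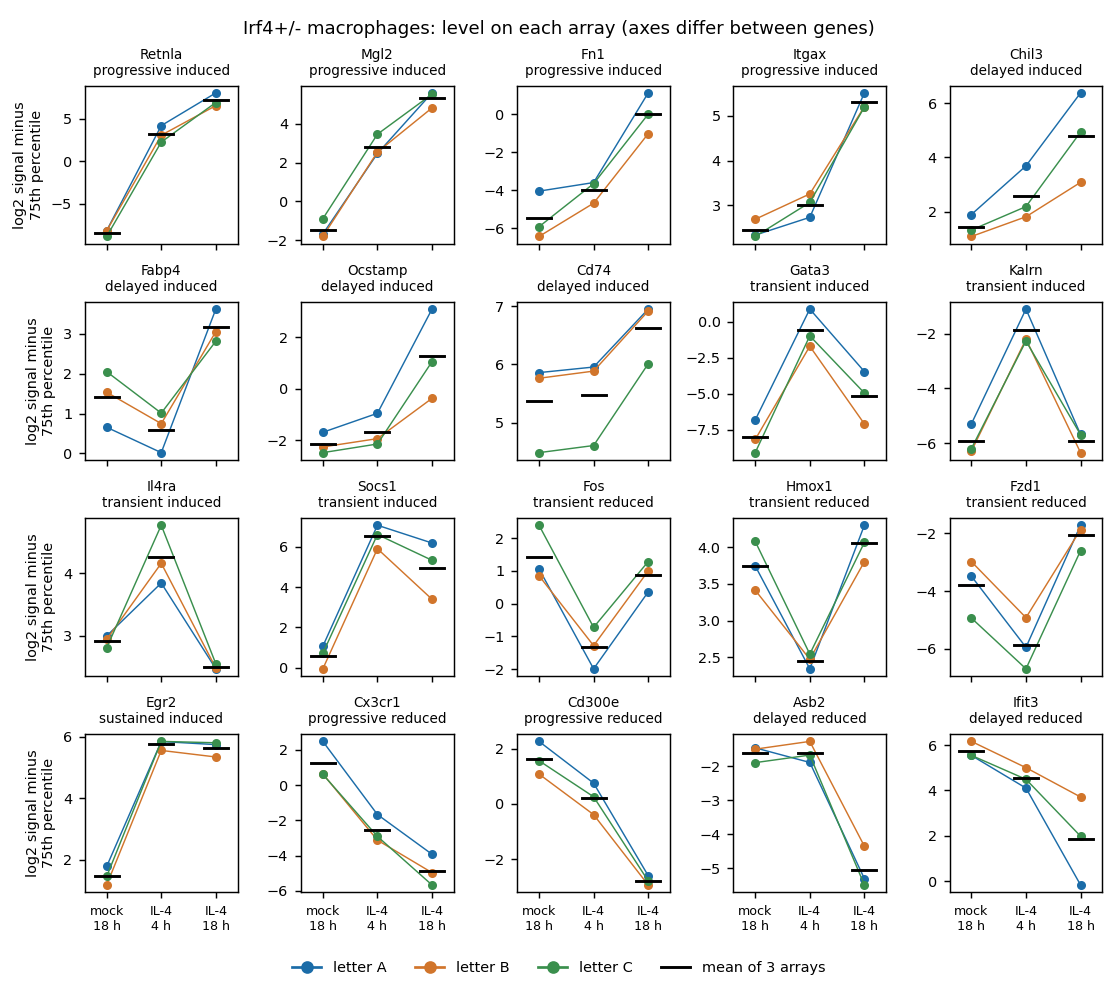
Level of 20 genes on each Irf4+/- array. The horizontal axis gives the condition, the vertical axis the log2 signal minus the array's 75th percentile (scales differ between genes), coloured lines join the 3 arrays of a letter and black bars are means of 3 arrays. Retnla climbs to between 6.52 and 8.02 at 18 h, Gata3 peaks at 4 h between -1.71 and 0.87, Fos dips at 4 h to between -1.99 and -0.72, and Asb2 is lowest at 18 h.

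Gata3, Kalrn, Tcf7l2 and the receptor gene Il4ra were among the transient induced genes. Gata3, a transcription factor best known from T helper 2 cells, measured -6.83, -8.18 and -9.09 in mock, 0.87, -1.71 and -0.99 at 4 h and -3.47, -7.10 and -4.95 at 18 h. It was well above background on no mock array, on all 4 h arrays and on 2 of 3 arrays at 18 h, and the groups of 4 h and 18 h did not overlap. It rose at least 70.5-fold by 4 h and then fell by 4.56 (SE 0.58, adjusted p = 0.000473; -1.32 under normexp). Kalrn was back near its mock level at 18 h, with -5.30, -6.29 and -6.20 in mock, -1.11, -2.21 and -2.27 at 4 h and -5.68, -6.35 and -5.69 at 18 h, where 2 of 3 arrays had it well above background. Its later change was -4.05 ± 0.34 (adjusted p = 2.4e-05) and read -0.34 under normexp. Tcf7l2, a transcription factor of Wnt signalling, also returned, from 2.17, 1.62 and 2.39 to -0.68, -0.64 and -0.49 against -0.54, -0.49 and 0.16 in mock, a change of -2.66 ± 0.22 with -1.62 and -1.38 on its farthest 2 probes. Id1, an inhibitor of basic helix-loop-helix factors, changed by -2.81 ± 0.49 (-0.62 under normexp). The serine protease inhibitors Serpina3f (-3.58 ± 0.40) and Serpina3g (-3.33 ± 0.37) fell together, and their sequences are close enough that probes may share signal. The receptor genes Drd4 for dopamine (-3.19 ± 0.53) and Ffar2 for short-chain fatty acids (-3.02 ± 0.30) and the gene Wdr86 (-3.60 ± 0.53) stayed above mock at 18 h, by 1.89, 1.03 and 2.77. Under normexp Serpina3f read -1.95 and Drd4 -0.85.

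The receptor subunit gene Il4ra was 3.00, 2.94 and 2.81 in mock, 3.85, 4.16 and 4.77 at 4 h and 2.47, 2.48 and 2.55 at 18 h. Every 18 h array lay below every mock array and every 4 h array above, so the level had passed through a peak, with a fall of 1.76 between the times (SE 0.25, adjusted p = 0.000855). Il13ra1, which pairs with it in the other receptor form, fell at both steps, from -1.57, -1.5 and -2.09 in mock to -2.79, -2.74 and -2.97 and -4.28, -3.25 and -3.98, and the step between the times (-1.0 ± 0.20) read 0.53 under normexp. Stat6 dipped at 4 h (2.18, 2.47 and 2.36, against 2.83, 2.74 and 2.91 in mock) and was back at 2.71, 2.82 and 2.70 at 18 h, a rise of 0.40 ± 0.10 (adjusted p = 0.0223) that normexp put at 0.04. In all, 5 of 18 genes of the receptor and JAK-STAT list fell and 1 rose, beside 6.33% and 5.12% of all genes, with a median of -0.29. Without the 4 h array of any letter 3 fell, and without the 18 h array of A or of C 2 did. The Stat6 call was lost without the 4 h array of A or any 18 h array. Among the inhibitors, Socs1 went from 1.07, -0.04 and 0.73 in mock to 7.06, 5.90 and 6.60 at 4 h and 6.18, 3.40 and 5.32 at 18 h. The 18 h array of letter A lay above the 4 h array of letter B, yet Socs1 fell in each letter, with a change of -1.55 ± 0.38 (adjusted p = 0.02) whose call was lost without the 4 h array of A or B or the 18 h array of B or C. Socs5 fell by 1.18 and Socs6 rose by 1.07 ± 0.19 (0.71 under normexp). Socs2 (-1.41 ± 0.48, adjusted p = 0.0784), Cish (-1.09 ± 0.81, adjusted p = 0.463) and Socs3 (-0.04 ± 0.30, adjusted p = 0.961) did not pass the test. Socs2 was called in 6 of 27 other settings, and Cish and Socs3 in 0. Cish was at 5.45, 3.70 and 4.26 and 5.02, 1.83 and 3.28, lower at 18 h in each letter and most in letter B.

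Ribosome biogenesis and Myc target genes were mostly transient, a course for which IL-4 and incubation time cannot be told apart. Of 30 measured, 23 were above mock at 4 h and 2 at 18 h, beside 10.0% and 7.76% of all genes. Between the times 17 fell and 0 rose, beside 6.33% of all genes falling, and the median of the 30 was -0.60 with all 30 below 0. The medians within letters A, B and C were -0.66, -0.48 and -0.59. The RNA helicase gene Ddx21 went from 0.29, -0.38 and 0.57 in mock to 1.89, 0.81 and 1.53 and 0.71, -0.06 and 0.89, a change of -0.90 ± 0.16 (-0.53 on its farthest probe). Dkc1, the pseudouridine synthase dyskerin, changed by -1.15 ± 0.27 (-0.52 on its other probe), Rrp12 by -0.95 ± 0.24 (Dkc1 -0.14 and Rrp12 -0.17 under normexp) and the nucleolar GTPase gene Gnl3 by -0.86 ± 0.22. Srm, spermidine synthase of the polyamine pathway, changed by -1.19 ± 0.25 (adjusted p = 0.00871). Myc itself was at 2.26, -0.44 and 3.05 at 4 h and 1.69, -0.06 and 2.91 at 18 h against 0.31, -1.93 and 1.87 in mock, and its change of -0.11 ± 0.56 did not pass the test. Left out singly, the 4 h array of A or C, or the 18 h array of A or B, reduced the 17 calls to between 3 and 6, and without the replicate block 0 passed. In the same order of runs, 499, 556, 624, 652 and 95 of all genes were called lower, against 977 in the reported fit. Of 18 costimulatory genes 6 fell and 0 rose, beside 6.33% and 5.12% of all genes, with a median of -0.63, and 3 fell without the 4 h array of letter B. Cd40 and Cd86, whose proteins activate T cells, were transient. Cd40 measured 0.14, -0.36 and 0.09 in mock, 2.39, 1.94 and 2.45 at 4 h and 0.77, 0.04 and 1.03 at 18 h, and Cd86 fell by 1.54 to below its mock level in each letter.

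In the sustained induced class the interval of the change between the times lay within 1 log2 unit of 0. Il4i1, an amino acid oxidase, was at -0.75, -1.97 and -2.30 in mock, 4.84, 3.45 and 2.3 at 4 h and 5.29, 3.02 and 2.69 at 18 h. Slc7a2, a carrier of arginine, was at -0.43, -0.90 and -0.39 and -0.41, -1.03 and -0.07 against -5.31, -6.14 and -5.59 in mock. Egr2, a transcription factor of the IL-4 response, was at 5.85, 5.56 and 5.85 and 5.75, 5.34 and 5.81 against 1.79, 1.18 and 1.46. In all 3 genes the mock arrays lay far below and the times overlapped. Their changes between the times were 0.14 ± 0.28, 0.07 ± 0.24 and -0.12 ± 0.24. The lectin genes Clec10a (-0.24 ± 0.16) and Mrc1, the mannose receptor (0.09 ± 0.16), the transcription factor gene Klf4 (0.31 ± 0.18), the cyclooxygenase gene Ptgs1 (0.20 ± 0.23), the interleukin-1 receptor gene Il1r1 (-0.15 ± 0.26), Tarm1 (-0.36 ± 0.27) and Hebp2 (0.16 ± 0.34) had the same course. Several strongly induced genes had intervals too wide for this class. Pdcd1lg2, the PD-1 ligand PD-L2, changed by -0.58 ± 0.52, Ccl24 by 0.23 ± 0.64 and the E-cadherin gene Cdh1 by -1.03 ± 0.36, the last called in 6 of 26 other settings. Of the 38 measured genes of an alternative activation list, 27 were above mock at 4 h and 30 at 18 h, beside 10.0% and 7.76% of all genes. Between the times 11 rose and 4 fell, beside 5.12% and 6.33% (5 and 1 without the replicate block or with normexp).

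Genes reduced at 4 h and restored at 18 h included immediate early and stress genes. There was no 4 h mock to set them against. Fos, a subunit of AP-1, measured 1.06, 0.85 and 2.4 in mock, -1.99, -1.28 and -0.72 at 4 h and 0.36, 1.0 and 1.29 at 18 h. The 4 h arrays were the 3 lowest, and Fos rose by 2.21 ± 0.36 between the times (4.63-fold, adjusted p = 0.00201). The nuclear receptor gene Nr4a1 rose by 1.10 ± 0.25, Klf10 by 0.97 ± 0.15 and Dusp1, a MAP kinase phosphatase, by 1.56 ± 0.34. Jun (0.62 ± 0.29) and Egr1 (1.01 ± 0.41) did not pass the test, though 4 and 2 of 27 other settings called them. Klf10 read 0.62 under normexp. Of 27 early response transcription factors, 6 rose and 2 fell, beside 5.12% and 6.33% of all genes, with a median of 0.33, and without the block 1 rose. The call of Nr4a1 was lost without the 4 h array of A or the 18 h array of A or B, and that of Dusp1 without the 4 h array of A. Hmox1, the heme oxygenase that breaks down heme, was 3.75, 3.42 and 4.08 in mock, 2.34, 2.47 and 2.54 at 4 h and 4.30, 3.80 and 4.07 at 18 h. Every 4 h array lay below every other array, and the recovery was 1.6 ± 0.18 (adjusted p = 0.000189). Srxn1 (0.94 ± 0.22), an antioxidant gene, recovered (not called without the 4 h array of C or the 18 h array of A) and Slc48a1 (1.01 ± 0.14), a heme transporter, rose late, while Cp, the ferroxidase ceruloplasmin, changed by -2.18 ± 0.41 but read 0.26 under normexp. Normexp gave Srxn1 0.58 and Slc48a1 0.57.

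Several genes reduced at 4 h stood above mock at 18 h, among them receptors of growth factor and Wnt signalling. Fzd1, a Wnt receptor, was -3.48, -2.98 and -4.93 in mock, -5.95, -4.92 and -6.69 at 4 h and -1.72, -1.87 and -2.60 at 18 h. All 18 h arrays lay above all mock arrays, and the rise was 3.79 ± 0.42 (13.8-fold, adjusted p = 0.000168), with 2 of 3 arrays at 4 h well above background and 2.10 under normexp. Fgfr1, a fibroblast growth factor receptor, rose by 2.00 ± 0.18, Plaur, the urokinase receptor, by 1.93 ± 0.20, and Spsb4 by 2.99 ± 0.28. The transcription factor gene Gfi1b rose by 3.07 ± 0.31, and Jag1, a Notch ligand, by 1.75 ± 0.28 back towards mock. Prokr1, a prokineticin receptor, was well above background on no 4 h array and was at least 4.55-fold higher at 18 h (measured change 1.63 under normexp). Several lipid genes were higher at 18 h than at 4 h. Plin2, which coats lipid droplets, rose by 0.87 ± 0.18 after a dip at 4 h, the oxysterol receptor gene Nr1h3 by 0.92 ± 0.20, and Mgll by 1.18 ± 0.29 (0.56 on its other probe). Of 31 lipid genes 7 rose and 2 fell, beside 5.12% and 6.33% of all genes, with a median of 0.20 that turned to -0.08 under normexp, and Apoc2 was among those that fell (-1.24 ± 0.27). Plin2 read 0.50 and Apoc2 -0.81 under normexp. Without the 18 h array of A or of C 0 lipid genes fell, and without the block 1 rose. The Nr1h3 call was lost without the 4 h array of C or the 18 h array of A, and that of Mgll without the 4 h array of C or the 18 h array of B or C. Cholesterol synthesis (24 genes) and oxidative phosphorylation (32 genes) had 0 calls in limma in either direction, with medians of 0.15 each. Under normexp these medians turned to -0.10 and -0.25, and that of oxidative phosphorylation was -0.01 without the 18 h array of A.

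**Figure D3:**
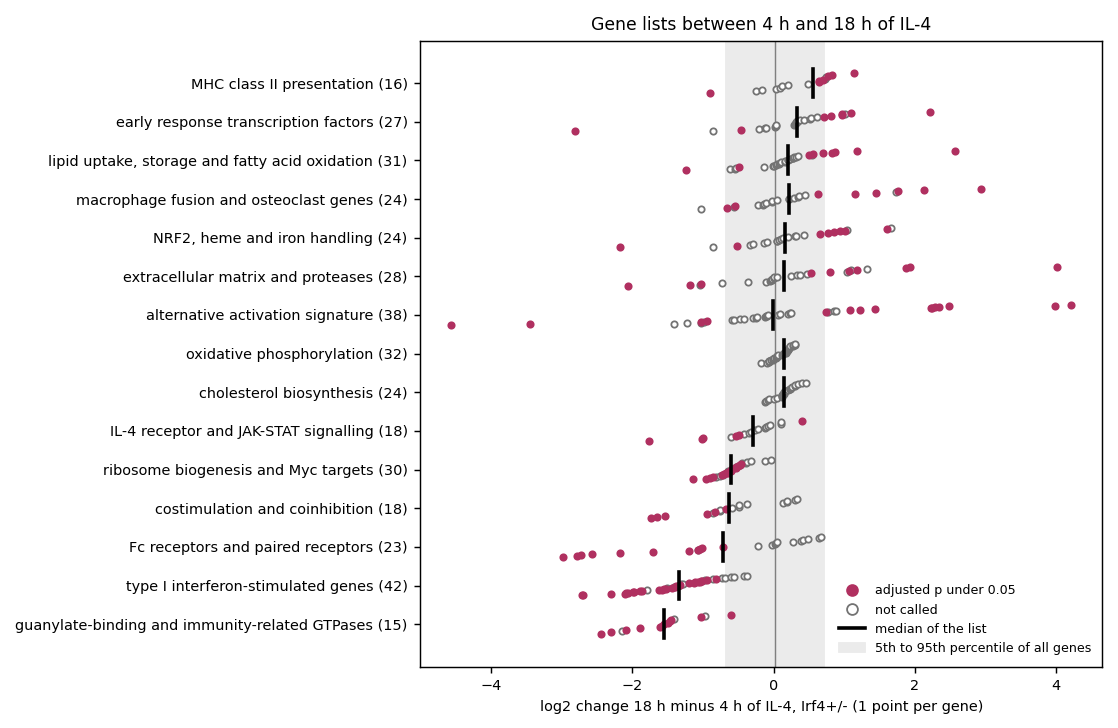
Change from 4 h to 18 h in 15 gene lists. The horizontal axis gives the log2 change (18 h minus 4 h, Irf4+/-), each point is 1 gene, filled points passed the test, black bars are list medians, the grey band spans the 5th to 95th percentile of all genes (-0.67 to 0.72), and the number of genes measured stands beside each list name. All 42 interferon-stimulated genes lie below 0, and the 16 MHC class II genes have a median of 0.56.

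Most of the interferon-stimulated genes measured were called lower at 18 h than at 4 h with no call at 4 h against mock. Interferons switch on antiviral genes, and macrophages in culture keep part of this program on at rest. Of 42 interferon-stimulated genes measured, 28 fell and 0 rose between the times, beside 6.33% of all genes falling, and their median change was -1.34. Their median at 4 h was -0.18 against mock, with 0 called in limma, beside 10.0% of all genes higher and 8.20% lower. At 18 h 35 were below mock, beside 7.75% of all genes. Of the 15 guanylate-binding and immunity-related GTPases, which attack intracellular parasites, 12 fell, with a median of -1.55 (6 without the 4 h or 18 h array of letter A, 0 without the replicate block). The lists share 7 genes, and of the 50 genes in either list 32 were of the delayed reduced class. Ifit3, an antiviral protein, measured 5.54, 6.16 and 5.54 in mock, 4.10, 5.00 and 4.49 at 4 h and -0.18, 3.71 and 1.98 at 18 h. Although not called at 4 h, it was already below mock then in every letter, by -1.22 ± 0.68, with no overlap. The 18 h arrays were the lowest and spread widely, with letter A lowest and letter B highest, and the change was -2.69 ± 0.68 (adjusted p = 0.0226). The same order of letters held for Ly6a (-2.93, 2.81 and 1.58 at 18 h, a change of -2.77 ± 0.65), Gbp4 (-5.45, -1.21 and -2.91, -2.44 ± 0.53) and Iigp1 (-1.92, 1.62 and 0.72, -2.30 ± 0.53). Isg20, an RNA exonuclease, changed by -2.72 ± 0.47, Gbp5 by -1.89 ± 0.32, Tgtp1 by -2.09 ± 0.52 (-1.04 on its other probe) and Stat2 by -1.02 ± 0.23. Normexp gave Gbp4 -0.29 and Gbp5 -1.09. Irf7, a transcription factor of this response, changed by -1.87 ± 0.50 with no call against mock at either time. The calls of Ifit3, Ly6a, Gbp4, Iigp1, Tgtp1, Stat2 and Irf7 were each lost without the 4 h array of A, and without the 18 h array of A.

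The size of the interferon decline varied over the letters. The median over the 42 genes was -2.20 in letter A, -0.67 in B and -1.14 in C, and 48 of the 50 genes in either list were lower at 18 h in all 3 letters, beside 27.9% of all genes tested. Gbp2 and Slfn5 were the others, with 0.10 and 0.21 in letter B, named after their values were seen. Without the 18 h array of letter A, 7 of the 42 genes were called and the median was -1.01. Without the 4 h array of A 7 passed, and with the 4 h or 18 h array of letter C left out 13 and 12 did. With the slide as a block in place of the letter 14 passed, and within letters A and B, or without the replicate block, 0 and 2 did. In the same order of runs, 624, 499, 556, 582, 1047, 193 and 95 of all 15424 genes were called lower, against 977 in the reported fit. Of 6 B-lineage markers measured, 2 fell (Cd79b, -1.04, and Ighm, -0.74), beside 6.33% of all genes falling. Pax5 and Ebf1 were not well above background on all arrays of any group. The summed level of the 6 was 2.13 to 4.67 at 4 h and 1.36 to 3.79 at 18 h. Plasmacytoid dendritic cell markers summed to 7.00 to 7.55 at 4 h and 6.17 to 7.04 at 18 h. In limma 0 of 3 were called, and Siglech was not well above background. Most of that sum was Bst2 (means of 7.21 and 6.52), itself among the 42 interferon-stimulated genes. Tcf4 stood at 1.88 and 1.93 and Ccr9 at -4.76 and -4.38, so the sum mainly follows an interferon-stimulated gene. The part of B-lineage or plasmacytoid dendritic cells in the interferon decline was not tested.

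**Figure D4:**
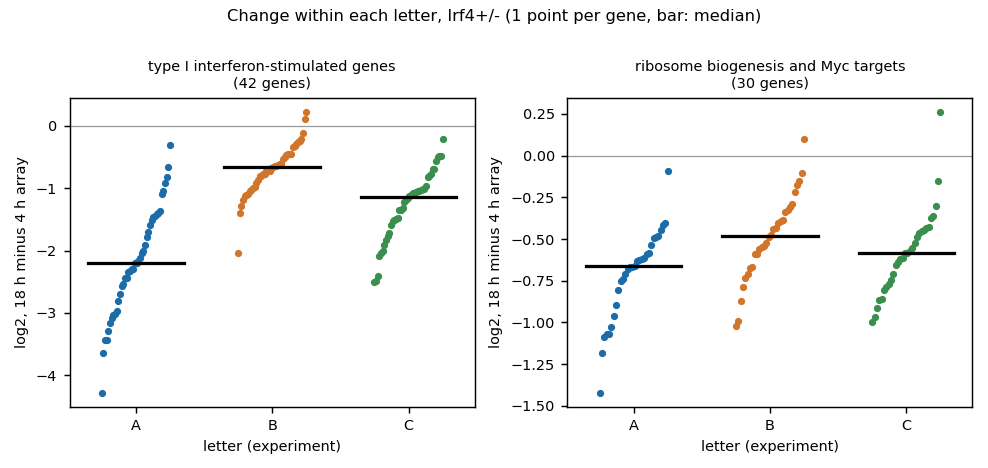
Change between 4 h and 18 h within each letter. The horizontal axis gives the letter, the vertical axis the log2 difference of the 18 h and 4 h Irf4+/- arrays of that letter, each point is 1 gene and bars are medians. The 42 interferon-stimulated genes have medians of -2.20, -0.67 and -1.14 in letters A, B and C, and the 30 ribosome biogenesis genes -0.66, -0.48 and -0.59.

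The interferon response element core, a GAAA followed after 2 bases of any kind by another GAAA, was searched on both strands of the promoter windows. It stood in 17.4% of 236 delayed reduced, 11.1% of 63 progressive reduced, 4.22% of 237 transient reduced and 1.88% of 320 sustained reduced genes, beside 3.76% of the tested genes with a window. Of the 32 interferon-stimulated genes with a window, 65.6% held it. Excerpts are shown for genes of the delayed and progressive reduced classes with the core in capitals, which reads as its reverse complement where the core lies on the opposite strand. They place the element in antiviral genes, in a chemokine gene and in paired receptor genes that fell too, and were picked after their values were seen.
Ifit3 (chr19:34583333-34583456, plus strand): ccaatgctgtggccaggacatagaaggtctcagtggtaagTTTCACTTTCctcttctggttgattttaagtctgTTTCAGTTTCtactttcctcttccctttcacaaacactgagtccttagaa
Gbp5 (chr3:142496729-142496818, plus strand): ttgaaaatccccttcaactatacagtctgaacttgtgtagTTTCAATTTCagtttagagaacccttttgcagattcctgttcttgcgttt
Tgtp1 (chr11:48992274-48992363, minus strand): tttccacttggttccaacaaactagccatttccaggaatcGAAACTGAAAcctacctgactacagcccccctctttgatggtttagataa
Cxcl10 (chr5:92349053-92349139, minus strand): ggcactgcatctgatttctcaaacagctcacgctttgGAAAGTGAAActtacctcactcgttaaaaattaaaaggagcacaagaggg
Pilra (chr5:137836407-137836496, minus strand): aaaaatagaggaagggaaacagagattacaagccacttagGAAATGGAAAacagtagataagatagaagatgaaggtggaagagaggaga
Pilrb1 (chr5:137858232-137858299, minus strand): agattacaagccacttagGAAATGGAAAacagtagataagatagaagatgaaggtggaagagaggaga
The 68 bases of Pilrb1 were also found at chr5:137871941-137872008 upstream of Pilrb2, and the Pilra excerpt holds them. In Ifit3 the core occurs at 2 places.

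Other delayed and progressive falls lay outside the interferon lists. Asb2, a subunit of a ubiquitin ligase, measured -1.45, -1.49 and -1.89 in mock, -1.88, -1.26 and -1.66 at 4 h and -5.30, -4.35 and -5.49 at 18 h. It was not called at 4 h, and every 18 h array lay below all others, with a fall of 3.44 (SE 0.28, 10.9-fold, adjusted p = 1.59e-05). Under normexp its change was -0.58 and not called, and -2.05 with normexp and spots far below their background left out. Cxcr3, a chemokine receptor, went from 2.13, 2.43 and 2.84 to -0.65, 0.18 and 0.60, a change of -2.42 ± 0.17 (adjusted p = 9.9e-06). Of its ligands, Cxcl10 fell at both steps, from 4.64, 4.33 and 3.62 in mock to 1.93, 1.82 and 1.27 at 4 h and -1.37, 0.49 and -0.50 at 18 h, with -2.13 ± 0.51 at the second (adjusted p = 0.0175), which was not called without the 4 h array of A or C or the 18 h array of A. Cxcl9 was well above background on no 18 h array and was at least 4.54-fold lower there than at 4 h, although normexp turned its measured change from -2.75 to 0.91. Cxcl11, with 1 array missing from its fit, was at least 2.56-fold lower, and -2.05 turned to 1.07. The death ligand gene Tnfsf10 (-1.79 ± 0.29) read 0.06 under normexp, and the costimulatory ligand gene Tnfsf14 (-1.74 ± 0.17) kept its fall. Among innate sensors, Nod1 changed by -1.0 ± 0.20 and the lipopolysaccharide coreceptor gene Cd14 by -0.84 ± 0.22, the latter not called without any single 4 h array or the 18 h array of A or C.

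Activating and inhibitory surface receptors were among the progressive reduced genes. Of 23 Fc and paired receptors measured, 11 fell and 0 rose between the times, beside 6.33% and 5.12% of all genes, with a median of -0.71 (5 fell without the replicate block). Cd300e, an activating receptor of monocytes, measured 2.27, 1.08 and 1.57 in mock, 0.75, -0.39 and 0.26 at 4 h and -2.60, -2.94 and -2.79 at 18 h. The 3 conditions did not overlap, and the second step was -2.98 ± 0.24 (7.92-fold lower, adjusted p = 1.47e-05; -1.58 under normexp). Pilrb1 went from 2.24, 2.31 and 2.48 in mock to 1.12, 0.51 and 0.98 and -2.35, -1.89 and -1.49, a second step of -2.78 ± 0.24. Pilra (-2.72 ± 0.27) and Pilrb2 (-2.57 ± 0.18) fell on their brightest probes, while their other probes read -1.04 and -0.33, with most of their fall already present at 4 h (-3.60 and -4.20). These receptors are paralogs whose probes may share signal. Normexp gave Pilra -1.57 and Pilrb2 -0.95. Cx3cr1, the fractalkine receptor, was 2.48, 0.63 and 0.61 in mock, -1.67, -3.12 and -2.91 at 4 h and -3.92, -4.97 and -5.66 at 18 h. Its second step of -2.28 ± 0.30 was -0.26 on the other probe and 0.14 under normexp, while its first step was -3.81 and, on the other probe, -2.45. Mmp14, a membrane metalloprotease, changed by -2.07 ± 0.27 (-1.25 on its other probe) and the prohormone convertase gene Pcsk1 by -2.52 ± 0.22 (-1.30), with -1.11 and -0.12 under normexp. Ppm1n (-3.33 ± 0.34) and Dscam (-3.02 ± 0.22) were well above background on 1 and 2 of 3 arrays at 18 h and read 0.75 and 0.48 under normexp. The sustained reduced class held Tlr2, the lipoprotein sensor (1.82, 2.39 and 1.43 and 1.55, 2.60 and 1.03 against 4.68, 4.72 and 4.17 in mock), Kdr, a receptor of vascular growth factor (-0.01 ± 0.42), Tal2 (0.0049 ± 0.31) and Cyp2s1 (0.11 ± 0.31).

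The same step was measured in Irf4-/- macrophages. Their arrays did not enter the log2 changes that made the classes but shared the fit's letter terms and its estimate of the spread. There 725 genes (4.70%) rose and 567 (3.68%) fell between 4 h and 18 h. Of the 1450 genes in the 6 classes that change between the times, 1437 (99.1%) moved in the same direction in Irf4-/- cells, and 886 (61.1%) were called there in that direction. Over all genes tested, 57.5% were above 0 and 42.5% below. None of the 1450 was called in the opposite direction in limma. With each genotype's arrays fitted alone, 2495 of 2537 such genes (98.3%) moved in the same direction, 1221 (48.1%) were called there and 0 were called in the opposite one. By class, 246 of 468 transient, 41 of 54 progressive and 164 of 239 delayed induced genes were called, and 226 of 309, 41 of 77 and 168 of 303 of the reduced ones. Of the sustained genes, 383 of 385 induced and 414 of 415 reduced stayed within 1 log2 unit in Irf4-/- cells, beside 96.2% of all genes. Retnla rose there from 3.62, 1.87 and 2.08 to 7.30, 5.58 and 6.72, by 4.01 ± 0.38 (adjusted p = 0.000104), and Ifit3 went from 3.07, 4.78 and 4.55 to -1.11, 3.94 and 2.42, again lowest in letter A. Fos rose by 1.87 ± 0.36, Hmox1 by 1.42 ± 0.18, and Gata3 changed by -3.47 ± 0.58. Among the 42 interferon-stimulated genes 18 fell, with a median of -1.24. Of the 16 MHC class II genes 1 rose and 1 fell, with a median of 0.23, and whether that differs between genotypes was tested gene by gene only.

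The test of the difference itself, 18 h minus 4 h between the genotypes, called 0 genes (0%) in limma, with 257 genes (1.67%) at an unadjusted p under 0.05. It called 0 in each other setting that could compute it. The 95% interval of this difference reached 0.54 log2 units to each side in the median gene. The 13 genes whose sign differed between genotypes, named after their values were seen, were Fhad1, Stxbp6, Chrna5, Ferd3l, Olfr225, Thrsp, Ceacam1, Igsf9, Fyb, Arhgap29, Itga11, Mctp1 and Pdk1. Chrna5, a nicotinic receptor subunit (2.50 ± 0.59 in Irf4+/-, -0.71 ± 0.59 in Irf4-/-), and Thrsp, a gene of lipid synthesis (2.66 ± 0.62 and -0.55 ± 0.62), were the farthest apart, and neither difference passed the test. Cd300e (-2.98 and -1.43) and Cx3cr1 (-2.28 and -0.85) had smaller falls in Irf4-/- cells by their values, without passing it either. Alox15, a lipoxygenase of the IL-4 response, changed by 0.24 ± 0.80 in Irf4+/- and -3.0 ± 0.80 in Irf4-/- cells, again without passing it.

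**Figure D5:**
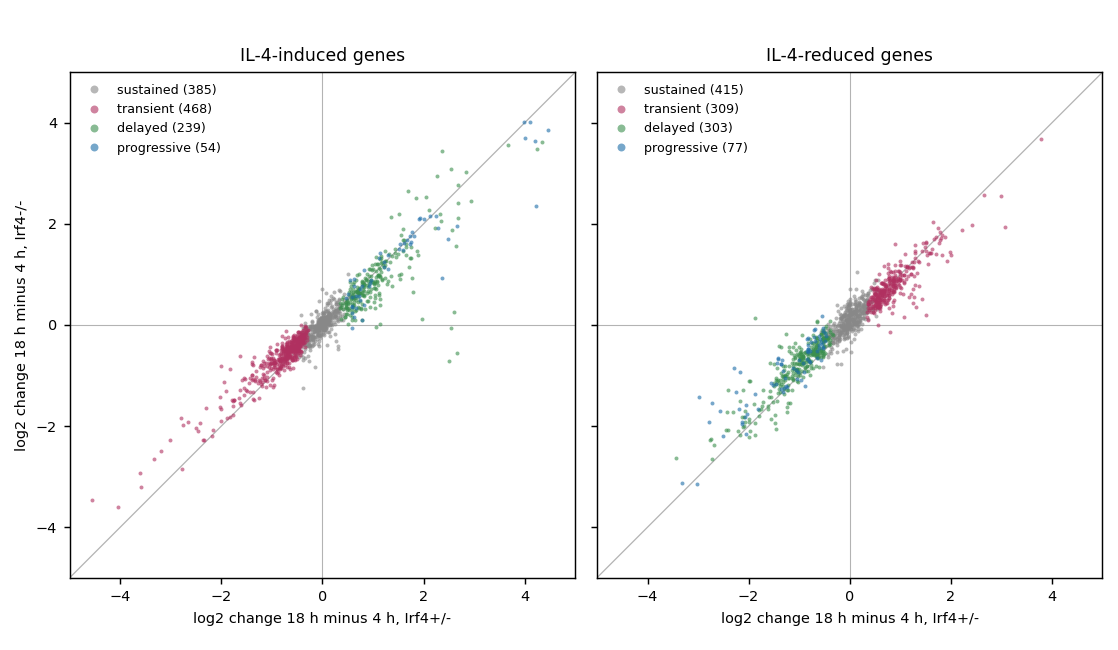
Change between 4 h and 18 h in both genotypes. Each point is 1 gene of a time class, the horizontal axis gives the log2 change (18 h minus 4 h) in Irf4+/- cells, whose changes made the classes, and the vertical axis the same in Irf4-/- cells, with the grey diagonal marking equal change. Of the 1450 transient, progressive and delayed genes, 1437 lie on the same side of 0 on both axes.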

How the data were processed

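RNA of 18 cultures was hybridised to single-colour Agilent arrays. Per the file headers, the authors extracted spot intensities with Agilent Feature Extraction 9.5.1, and the processed intensity is background-subtracted by that software. A deposited log2 table holds each array relative to the Irf4+/- mock array of its letter, per the file headers and values, and served as an alternative. Its columns correlated with the same differences computed here, at 0.999 in the lowest case. No source used here says how it was scaled.

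Levels are log2 processed intensity minus the array's 75th percentile, over probes that are not controls and without outlier spots. A probe was kept if every array of at least 1 group had it well above background (27514 of 41174 probes). Symbols came from RefSeq accessions or the array's own names, and the brightest probe stood for a gene, which gave 15424 genes.

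All 18 arrays were fitted in limma 3.58.1 (R 4.3.3, statmod 1.5.0) with a mean for each of the 6 groups and the letter as a replicate block. P-values were adjusted by Benjamini-Hochberg over all genes, and calls were made at 0.05. Changes are given as log2 ± SE of the fit (n = 3 letters). The letters were taken to pair the samples. The 4 h and 18 h arrays deviated together within each letter, at 0.88, 0.80 and 0.81, against -0.62 to 0.03 across letters. Deviations are from the mean of 3 arrays, so high correlations within letters push those across letters below 0. In letters A and B both times also shared a slide. The design text names independent experiments on littermates but does not tie them to the letters, so the pairing rests on the correlations within letters. P-values measure the spread between pooled cultures around the group and letter means. Differences between the 2 genotypes within a letter stay in that spread, although those shared by both times cancel in an 18 h minus 4 h difference. With each genotype and letter together as a fixed block the calls went from 1767 to 3502. "At least" folds set the brighter mean against the dim arrays' lowest signal well above background. The code was tested on simulated data.

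Named genes were the 8 with the largest change per class that moved alike in all letters, up to 4 called members per gene list, and a list of well-known genes. The members and lists were chosen with earlier results of these data known. Alternatives covered the block, slide, scaling, background correction, filters, probe choice, threshold and each Irf4+/- array left out. The slide block in place of the letter, the run on letters A and B and the fit of each genotype alone were added after seeing the data. Promoter windows came from RefSeq (GRCm38.p6).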

Additional observations from a re-analysis of the deposited data

Results flagged for a closer look

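Of 3075 measured probes that carry no gene symbol, and so entered no gene count, 19 were called between 4 h and 18 h in limma (0.618%), 8 higher and 11 lower. The largest rise was 3.20 and the largest fall -1.45 (log2), and 18 of the 19 had the same sign in Irf4-/- cells. Among the genes tested 5.12% were called higher and 6.33% lower. In Irf4-/- cells 57.5% of genes lay above 0 and 42.5% below. The p-values of these probes were adjusted among themselves. The 19 were flagged because they lie outside the gene comparisons, and their share of calls was below that of the genes.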

How the results depend on the processing

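The genes called in both the reported fit and each alternative kept their direction, while the counts moved. In the order higher, lower, then transient, sustained, progressive and delayed induced, and the same 4 reduced, the reported counts were 790, 977, 468, 385, 54, 239, 309, 415, 77, 303. Without the replicate block they were 82, 95, 40, 81, 7, 31, 23, 81, 9, 36. With each genotype and letter together as a fixed block they were 1654, 1848, 959, 750, 107, 505, 737, 759, 176, 491, and as a random block 1696, 1868, 987, 679, 118, 499, 760, 738, 178, 486. The slide as a random block beside the letter gave 1308, 1592, 837, 692, 94, 367, 612, 669, 164, 412, and a fit of the Irf4+/- arrays alone with the block 1412, 1585, 812, 579, 81, 420, 639, 719, 141, 444. Normexp gave 144, 505, 184, 69, 8, 43, 50, 133, 10, 129, a threshold of 0.01 gave 322, 398, 177, 211, 22, 122, 109, 234, 25, 140, a 2-fold minimum gave 241, 307, 91, 102, 26, 96, 65, 118, 25, 138, and letters A and B alone gave 149, 193, 96, 145, 9, 53, 53, 164, 18, 61. Median scaling gave 422 higher, 159 delayed induced, 143 transient reduced and 47 progressive reduced. Keeping dim probes gave 31 progressive induced and 48 progressive reduced, and the slide block 464 transient reduced. Leaving out single arrays gave 433 to 763 higher, 499 to 935 lower, 228 to 396 transient induced, 257 to 371 sustained induced, 28 to 43 progressive induced, 161 to 225 delayed induced, 154 to 260 transient reduced, 284 to 352 sustained reduced, 37 to 69 progressive reduced and 161 to 270 delayed reduced. The genotype difference had 0 calls in each run.

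Of 144 named genes called between the times, 25 were called in every run that gave them a value (27 at most), 89 in every run without 1 array, and 102 were not called without the block. With normexp 65 were not called and 13 turned sign, none of those being called: Cp 0.26, Cx3cr1 0.14, Cxcl11 1.07, Cxcl9 0.91, Dscam 0.48, Fpr2 0.69, H2-Oa 0.33, Il13ra1 0.53, Jak3 0.019, Ppm1n 0.75, Tlr3 0.19, Tnfsf10 0.060, Tnfsf4 0.56. With normexp and the spots far below their background left out, 10 of the 144 were not called and 0 turned sign. The turns were seen only with those spots kept, and how they arise was not tested. Dim genes are limited by signal over background.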
